A study of Rattus norvegicus with 8 samples.

Results

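Cathepsins are the main proteases of the lysosome, and cystatins are the proteins that block the cysteine type of cathepsin. The 10 genes described here are 8 cathepsins, Ctsb, Ctsl, Ctss, Ctsz, Ctsc, Ctsh, Ctsd and Ctsa, and 2 cystatins, Cst3 and Cstb. They were taken by symbol from the gene list of the deposited count tables, where all 10 were found among 32623 genes. Ctsb is the member that the study itself followed, as an immune-related autophagy gene. The rest of the set is its close family and its inhibitors.

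The data are single-cell RNA-seq counts of spinal cord from 8 libraries, 2 in each of 4 groups. All animals were female Wistar rats of 8 weeks with no genetic change. The sham group had a laminectomy alone, and the mild, moderate and severe groups had in addition a contusion made by a weight dropped on the exposed cord at T9 from 3 increasing heights. Cord around the lesion was taken 7 days after surgery and dissociated. The study describes a spinal cord for each of the 8 libraries, and the labels do not name the animal behind each one. The p-values below measure the spread between these libraries or, in tests between cell classes, between class sums of these libraries.

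Cathepsins are made as inactive precursors, sorted to the lysosome and activated in its acid interior, where they break down proteins that the cell has engulfed or has delivered by autophagy. Macrophages and microglia, the phagocytes of the injured cord, take up myelin and dead cells and depend on these enzymes. Cystatin C, the product of Cst3, is secreted and inhibits cysteine cathepsins outside and inside cells, whereas cystatin B, the product of Cstb, stays in the cytosol and the nucleus, where it can inhibit cathepsins that leak out of the lysosome.

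Many lysosomal genes carry the short E-box CACGTG near their start, and TCACGTGA is the form of it that the factor TFEB is known to bind. The promoter windows of RefSeq (250 bases before to 50 bases after the gene start, build GRCr8) held 9 of the 10 members, all but Ctsb, and both strands were searched. CACGTG was in 2148 of all 33469 windows (6.42%) and in those of 2 members, Ctsd and Cstb. The longer TCACGTGA, which contains CACGTG, was in 260 windows (0.777%) and in that of Ctsd alone among the members. The 3 sites are shown 5′ to 3′ with 30 bases each and the motif in capitals, because they are the lysosomal motifs found in this gene set. The letters CACGTG in them began 157 and 10 bases before the start of Ctsd and 22 bases before that of Cstb.
Ctsd, GRCr8 chr1:206968961-206968990, minus strand: tctttcttccccCACGTGactcgcatccag
Ctsd, GRCr8 chr1:206968822-206968851, minus strand: tccgcccctcgcccgcgtcTCACGTGAccc
Cstb, GRCr8 chr20:10247204-10247233, minus strand: ccttcgctctgtCACGTGccacgggtccag
A match describes the letters of these windows only, and binding was not measured in these libraries.

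Of the 68658 deposited cells, 55460 passed the filters. Between 31482153 and 131045446 UMIs, each the count of a single captured RNA molecule, were deposited per library. Cells were given to a class when at least 3 of its 8 listed marker genes were detected with a clear lead over every other class, and class names below stand for these marker gates, as in microglia-like. The gate left 17616 phagocytes and 19983 cells (36.0%) without a class. Within the phagocytes, 3025 cells carried the microglial markers (P2ry12, Tmem119 and others), 1101 those of infiltrating macrophages (Fn1, Vcan and others) and 2320 those of border macrophages (Mrc1, Cd163 and others). The remaining 11170 had no clear subset. Sham replicate 1 stood apart, since it gave 4403 neutrophils and 220 phagocytes where sham replicate 2 gave 1 and 1828. All levels are given as CPM, the UMIs of a gene per 1000000 UMIs of the class in that library, for classes with at least 20 cells. Astrocytes (44 cells) and neurons (1 cell) reached 20 cells in no library and have no place in the orders of classes below. The assay reads the 3′ end of each RNA, so CPM values are not scaled by transcript length, and the order of 2 genes by CPM is an order of captured molecules.

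On average the phagocytes held more of the UMIs of each member than any other gated class, with Cstb and Ctsl as the members that had the smallest share there. The phagocytes made up 31.8% of the cells of all libraries together. They held on average 42.5% (Cstb), 44.1% (Ctsl) and up to 65.3% (Ctss) of the UMIs of a member in a library. Cells without a class held 18.4% to 40.0% on average. Between libraries the phagocyte share ran from 5.87% to 79.5% for Cstb and from 38.0% to 87.8% for Ctss. In sham replicate 1 neutrophils held 52.5% of the Ctsc and 53.6% of the Ctsh UMIs, beside 11.5% and 11.2% in phagocytes. Such shares grow with depth, and phagocytes had medians of 8068 to 16800 UMIs, beside 683 to 2577 in neutrophils. By CPM, Cstb averaged 1457 ± 361 in phagocytes and 1387 ± 307 in all kept cells. Ctsl averaged 1933 ± 745 and 1770 ± 630 CPM in the same order, so both were nearly level. Ctsb, a cysteine endopeptidase, averaged 6147 ± 1799 CPM in infiltrating macrophages (SD, n = 6 libraries). It averaged 5687 ± 2345 CPM in border macrophages (n = 8) and 4457 ± 1526 CPM in microglia (n = 8). These 3 levels lay within each other's spread. The infiltrating value comes from the 6 injured libraries, and over the same 6 the border macrophages averaged 6384 ± 2182 CPM and the microglia 4981 ± 1354 CPM. Neutrophils followed with 1997 ± 999 CPM (n = 7) and fibroblasts with 1297 ± 359 CPM (n = 7), and a clear step separated fibroblasts from dendritic cells at 579 ± 305 CPM (n = 6). Oligodendrocytes, endothelial cells, oligodendrocyte precursors and T/NK cells lay at 246 to 472 CPM on average, each within the spread of its neighbour in the order.

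Ctsd, the aspartic protease of the lysosome, had the same 4 classes at the top, with 4883 ± 2331 CPM in infiltrating macrophages, 4060 ± 2226 CPM in border macrophages, 3760 ± 1892 CPM in microglia and 1943 ± 1124 CPM in neutrophils. Over the 6 injured libraries alone the border macrophages averaged 4887 ± 1768 CPM, level with the infiltrating ones. The other classes with at least 4 libraries averaged 264 to 505 CPM. Ctsz, a carboxypeptidase of the cysteine family, was highest in microglia at 2713 ± 579 CPM and was still 1651 ± 233 CPM in dendritic cells, while fibroblasts, endothelial cells and the oligodendrocyte lineage had 80.0 to 94.7 CPM. Ctsa, a serine carboxypeptidase that also protects other lysosomal enzymes from decay, was highest in border and infiltrating macrophages (1146 ± 358 and 1140 ± 449 CPM) and averaged 631 ± 233 CPM in microglia.

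Ctsl, a cysteine endopeptidase, was high outside the phagocytes as well. It averaged 2125 ± 584 CPM in fibroblasts, 2095 ± 762 CPM in oligodendrocytes and 1921 ± 300 CPM in endothelial cells (n = 4), next to 1904 ± 773 CPM in border macrophages and 1316 ± 365 CPM in microglia, and all of these lay within the spread of their neighbours in the order. Infiltrating macrophages were highest with 3353 ± 679 CPM. Oligodendrocyte precursors, of the same lineage as oligodendrocytes, had 188 ± 28.4 CPM.

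Ctss, which works at neutral pH and trims the invariant chain of MHC class II, had its highest mean in microglia, at 499 ± 529 CPM. The large SD there came from the sham libraries described below (1766 and 616 CPM). Ctsh, an aminopeptidase of the cysteine family, was highest in dendritic cells at 979 ± 196 CPM and microglia at 820 ± 252 CPM. Ctsc, which activates the granule proteases of leukocytes, was 269 ± 230 CPM in infiltrating macrophages and 222 ± 108 CPM in border macrophages, and was similar in microglia and neutrophils (171 ± 41.0 and 166 ± 92.9 CPM).

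The 2 inhibitors were spread in different ways. Cst3 was highest in microglia at 18097 ± 14718 CPM and in dendritic cells at 10924 ± 3369 CPM. The dendritic cells come from the 6 injured libraries alone, and over these the microglia averaged 10715 ± 6171 CPM, so the 2 classes did not differ there beyond their spread. Endothelial cells (5188 ± 1969 CPM), oligodendrocytes (3792 ± 1904 CPM) and border macrophages (3163 ± 1798 CPM) came next, and infiltrating macrophages had 653 ± 149 CPM. Cstb was highest in infiltrating macrophages at 2819 ± 488 CPM and in neutrophils at 1909 ± 541 CPM, and lay between 850 and 1530 CPM on average in border macrophages, endothelial cells, microglia, oligodendrocytes and dendritic cells.

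**Figure D1:**
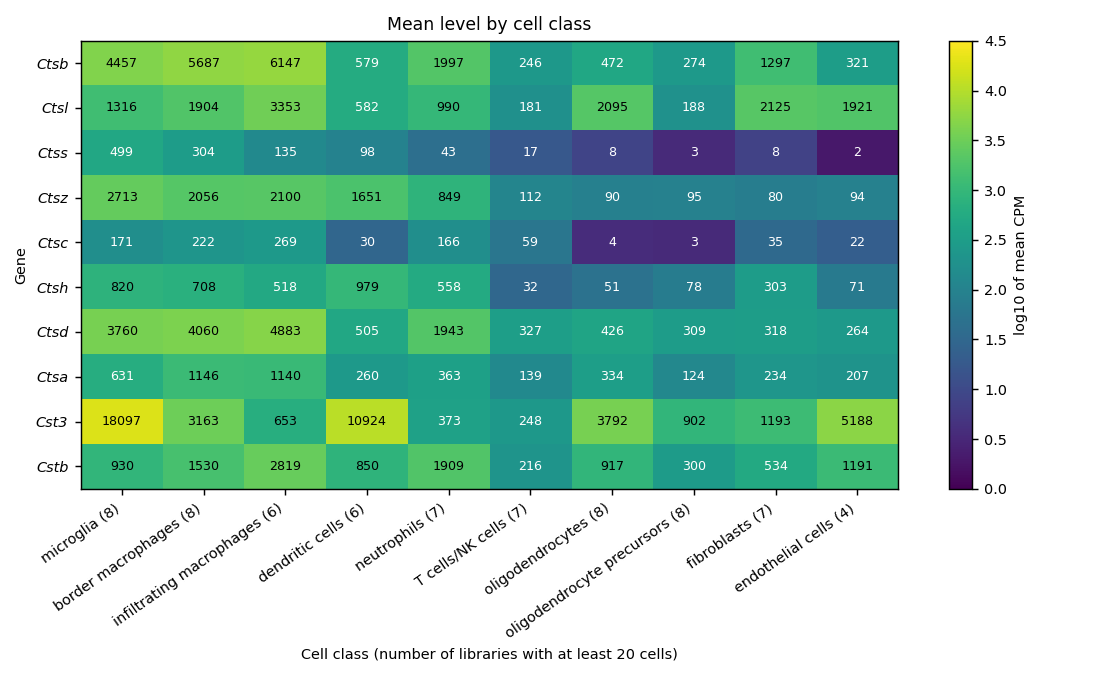
Mean CPM of each member (rows) in each cell class (columns, with the number of libraries that had at least 20 cells). Colour is the log10 of the mean CPM and the printed number is the mean. The cathepsins were highest in the macrophage and microglia columns except Ctsh, and Cst3 stood at 18097 CPM in microglia and 653 CPM in infiltrating macrophages.

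In the test of phagocytes against 6 other classes, with the library as a block, 53 of the 60 pairs of a member and a class were called higher in phagocytes and 1 was called lower. The fit took together 57 sums, each of a class in a library, from the 8 libraries. Its p-values pool the spread over all these sums, of which several come from each library and are not independent. Among all 13481 genes tested, 34% were called higher and 28.1% lower than in neutrophils (62.1% in all), 28.5% and 14% than in dendritic cells (42.5%), and 33.2% and 16.2% than in T/NK cells (49.4%). The same shares were 38% and 31.2% against oligodendrocytes (69.1%), 32.7% and 32% against oligodendrocyte precursors (64.7%) and 30.5% and 28.1% against fibroblasts (58.6%). Ctsb exceeded each of the 6 classes, from a log2 fold change of 1.40 ± 0.19 (SE) over neutrophils to 5.08 ± 0.23 over T/NK cells (adjusted p = 1.59e-08 and 8.93e-25, higher in 7 of 7 libraries each). Against oligodendrocytes Ctsl was not called, with a log2 fold change of 0.19 ± 0.23 (adjusted p = 0.483, higher in 2 of 8 libraries). The same held against fibroblasts, with 0.14 ± 0.24 (adjusted p = 0.653, higher in 3 of 7 libraries).

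The other pairs without a call were Ctsc and Ctsh against neutrophils and Ctsh and Cst3 against dendritic cells. Cst3 in dendritic cells was 7359 to 14962 CPM, above the phagocytes in 6 of 6 injured libraries, and yet the log2 fold change was -0.29 ± 0.41 (adjusted p = 0.618). Ctsh was likewise higher in phagocytes in 0 of 6 libraries (676 ± 164 CPM beside 979 ± 196 CPM in dendritic cells), with -0.08 ± 0.24 (adjusted p = 0.836). This fit takes the level of phagocytes from all 8 libraries, the sham ones included. The reason for the gap between the CPM values and the fit was not tested. Cstb was the member called lower in phagocytes than in neutrophils (-0.41 ± 0.16, adjusted p = 0.0242, lower in 6 of 7 libraries), and 28.1% of all genes were called in that direction. Without doublet removal none of the 60 pairs was called lower. Scaling by library size alone changed the share of calls higher in phagocytes over all genes from 67.1% to 42.2% against dendritic cells, 67.2% to 50.6% against T/NK cells, 50.5% to 25.5% against oligodendrocyte precursors, 52.1% to 34.9% against fibroblasts, 54.9% to 43.5% against oligodendrocytes and 54.7% to 66.3% against neutrophils.

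Free RNA in the droplets was gauged in 2 ways. Erythroid cells, which should lack lysosomal proteases when mature, were numerous enough in severe replicate 2 only (178 cells), and there Ctsb was 243 CPM and Cst3 40.3 CPM, beside 4253 and 7547 CPM in the phagocytes of that library. The second measure was C1qb, a phagocyte gene, whose level in other classes was at most 7.37% of that in phagocytes. In the erythroid cells C1qb was 0.390% of the phagocyte level, which implied 16.6 CPM of Ctsb and 29.4 CPM of Cst3, so that the Ctsb found there exceeded the implied level and gives no background level for other classes. Cstb and Ctsl in neutrophils, fibroblasts, oligodendrocytes and endothelial cells exceeded the level that C1qb implied in every library. C1qb averaged 338 CPM in infiltrating macrophages, where both genes were highest, beside 5673 CPM in all phagocytes. It therefore does not gauge free RNA from infiltrating macrophages. The infiltrating markers summed to 369 to 5259 CPM in neutrophils of the injured libraries and 2938 to 5816 CPM in infiltrating macrophages. Their part in the neutrophil values was not tested. Ctss in oligodendrocytes of sham replicate 2, at 42.0 CPM, did not exceed the implied 42.7 CPM.

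When each cell was thinned to 1000 UMIs, Ctsb was found in 93.1% ± 5.18 of phagocytes (SD, n = 8 libraries), Ctsz in 86.8% ± 5.10, Ctsd in 83.8% ± 11.3 and Cst3 in 83.3% ± 10.8. Ctsl was found in 70.5%, Cstb in 66.5%, Ctsa in 52.2%, Ctsh in 49.7%, Ctss in 29.3% and Ctsc in 17.7%. Without thinning the shares ran from 72.2% (Ctsc) to 98.6% (Cst3), and 350 of 17616 phagocytes had too few UMIs to be thinned. In the 178 erythroid cells, of similar depth (median 10289.5 UMIs, beside 8068 to 16800 in phagocytes), Ctsb was found in 27.5% (95% Wilson interval 21.5% to 34.5%), Ctsd in 7.30% and Cst3 in 2.81%. Ctsa and Ctsh were found in 0 of the 178 at 1000 UMIs, which allows up to 1.69% of cells with a UMI at that depth and sets no limit on cells that express the gene. Without thinning they were found in 5.62% and 2.81% of the same cells. These intervals and limits cover counting error only.

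The level of Ctsb across the 71 class sums was closely matched by Cndp2, Npc2, Lgmn and Folr2, with Pearson correlations of log2(CPM + 1) of 0.94, 0.93, 0.90 and 0.89. Npc2 carries cholesterol out of the lysosome, and Lgmn encodes legumain, another lysosomal cysteine protease. Folr2 is also a marker used to gate the border macrophages. The genes most like Cst3 were Gmpr, Atp1b3, Cyfip1, Leprot and Ctnna1, with lower correlations of 0.74, 0.70, 0.70, 0.69 and 0.68. The 71 sums come from 12 classes of the same 8 libraries and are not independent.

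After contusion, the phagocytes held far fewer Cst3 molecules than in the sham group, in each of the 3 injury groups. Cst3 was 30032 and 38796 CPM in the sham libraries, 3830 and 5709 in mild, 4006 and 2351 in moderate and 8676 and 7547 in severe injury. All 6 injured libraries lay below both sham libraries, and the severe ones lay above the mild and moderate ones. The log2 fold change against sham was -2.80 ± 0.42 (SE) in mild, -3.44 ± 0.43 in moderate and -1.68 ± 0.40 in severe injury (adjusted p = 0.0103, 0.00889 and 0.04). The 3 comparisons share the 2 sham libraries and are not independent.

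Ctss moved in the same direction. It was 1427 and 579 CPM in sham, 180 and 314 in mild, 174 and 253 in moderate and 240 and 160 in severe injury. Both sham libraries lay above all others but differed from each other by more than any injured pair. The log2 fold change was -1.87 ± 0.42 in mild, -2.13 ± 0.43 in moderate and -1.82 ± 0.42 in severe injury (adjusted p = 0.0344, 0.0322 and 0.0376).

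Ctsb was the member called higher after injury, and in mild injury only among the 3 tests. It was 2395 and 3732 CPM in sham, 7519 and 8049 in mild, 5707 and 6025 in moderate and 3843 and 4253 in severe injury. All injured libraries were above both sham libraries, and the order of the groups was mild, moderate, severe, sham, with no overlap between them. The log2 fold change was 1.38 ± 0.35 in mild injury (adjusted p = 0.0461), 0.92 ± 0.35 in moderate (adjusted p = 0.155) and 0.80 ± 0.35 in severe injury (adjusted p = 0.178). The difference between these effects was tested for severe against mild, where it was -0.58 ± 0.35 (adjusted p = 0.384). CPM values lack the factors for composition used in these fits, so the steps between groups differ in size by the 2 measures.

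Ctsl, Ctsa, Ctsz and Cstb were also above both sham libraries in all 6 injured ones, but none passed the test. With Ctsb, 5 of the 10 members lay above both sham libraries in all 6 injured ones, beside 9.06% of the 12699 genes tested, and with Cst3 and Ctss 2 members lay below, beside 14.5%. Ctsl was 755 and 1151 CPM in sham and 1658 to 3050 CPM after injury, and its smallest adjusted p was 0.0547, in severe injury (log2 fold change 1.53 ± 0.40). Ctsa was 264 and 643 CPM in sham and 777 to 1420 CPM after injury (smallest adjusted p = 0.0726, in mild injury). Cstb was 1068 and 1034 CPM in sham and 1308 to 2033 CPM after injury (smallest adjusted p = 0.0553, in severe injury). Ctsz was 1939 and 1719 CPM in sham and 2181 to 3089 CPM after injury (smallest adjusted p = 0.072, in mild injury).

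For the other 3 members the sham range and the range of all injured libraries overlapped. Ctsd ran from 1236 and 3383 CPM in sham to 2515 to 7865 CPM after injury, with the mild (4971 and 7865 CPM) and moderate (5349 and 4887 CPM) libraries above sham. Ctsh was 670 and 1100 CPM in sham and lowest in moderate injury at 551 and 410 CPM. Ctsc was 127 to 203 CPM in every library but severe replicate 1, which had 390 CPM.

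**Figure D2:**
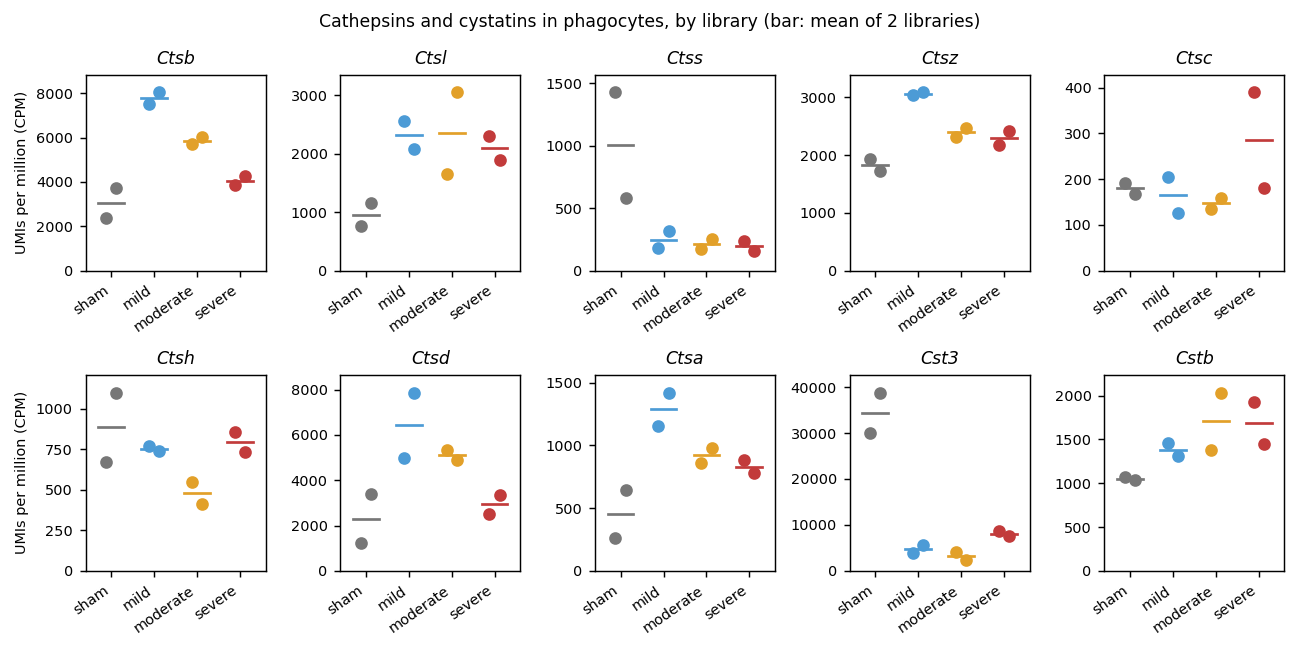
CPM of each member in phagocytes, each point a library, by group (grey sham, blue mild, orange moderate, red severe), with a bar at the mean of the 2 libraries. Vertical axes start at 0 and differ between genes. Cst3 and Ctss points of all 6 injured libraries lay under both sham points, and Ctsb points of all injured libraries lay above them.

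Among the 12699 genes tested in phagocytes, 8.99% were called in mild injury (4.76% higher and 4.23% lower), 4.54% in moderate (3.02% and 1.52%) and 7.18% in severe injury (4.65% and 2.53%) against sham, beside 3 (Ctsb, Ctss and Cst3), 2 and 2 (Ctss and Cst3) of the 10 members. The median log2 fold change of the 10 members was 0.65, 0.57 and 0.79, and that of all genes was 0.00, 0.03 and -0.08. In severe against mild injury none of the 10 members was called by edgeR in the fit of all 8 libraries, beside 3.03% of all genes (1.91% higher and 1.12% lower). The unadjusted p was under 0.05 for 2 of the members (Ctsc and Cst3), beside 2594 of the 12699 genes. DESeq2 called the same 2, each higher in severe injury (adjusted p = 0.0394 and 0.0406), beside 914 of the 12699 genes. When only the mild and severe groups were fitted, edgeR called 1 member, beside 1483 genes in all. With no filter on low counts it called 2 members, beside 1434 genes in all. The edgeR log2 fold change of Ctsc, 1.14, fell to 0.54 without severe replicate 1, rose to 1.55 without severe replicate 2 and passed the test in none of the 8 omissions, and its CPM values overlapped between the groups. Cst3 was 1.12 ± 0.39 higher on the log2 scale in severe injury (adjusted p = 0.161).

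These calls rest on few libraries. When only the sham group and the injury group compared were fitted, edgeR called none of the 10 members against sham in mild, moderate or severe injury, beside 17, 0 and 299 genes in all. At an unadjusted p under 0.05, 6, 3 and 5 members and 3102, 2072 and 2128 genes passed in these fits. Without mild replicate 1, or without mild replicate 2, no member was called in mild injury, and Ctsb was called in 1 of 8 such omissions, that of sham replicate 2. Over the 8 omissions the log2 fold change of Ctsb ran from 0.97 to 1.99 in mild, 0.50 to 1.53 in moderate and 0.40 to 1.41 in severe injury. In the same order that of Ctsl ran from 0.92 to 1.91, 0.81 to 1.87 and 1.14 to 2.11. For Ctsd it ran from 0.84 to 2.67, 0.44 to 2.29 and 0.080 to 1.90. For Ctsa it ran from 0.91 to 2.58, 0.36 to 2.04 and 0.64 to 2.29. For Cst3 it ran from -3.12 to -2.36, -3.87 to -3.00 and -1.99 to -1.25. Ctsh in moderate injury ran from -1.35 to -0.24. Cst3 was called in 6, 7 and 3 of 8 omissions in mild, moderate and severe injury, and Ctss in 2, 4 and 2. The call of Cst3 was lost in mild injury without either mild library, in moderate injury without moderate replicate 2, and in severe injury without either mild library, either severe library or sham replicate 2. Scaling by library size alone in place of TMM (edgeR's factors for composition) moved the median of all genes from -0.08 to -0.50 in severe against sham, and the calls from 591 higher and 321 lower to 409 higher and 1275 lower. In severe against mild injury they went from 243 higher and 142 lower to 188 higher and 537 lower. Under it Ctsh turned from 0.23 to -0.16. CPM values carry no TMM factor and can differ from the reported log2 fold changes. Mean Ctsb was 5866 CPM in moderate and 4048 CPM in severe injury, beside log2 fold changes against sham of 0.92 and 0.80. Mean Ctsz was 3065 CPM in mild and 2303 CPM in severe injury, beside 0.82 and 0.78. The sizes of the rises of members in severe injury therefore depend on the scaling.

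The make-up of the phagocytes moved with these results. Microglia were 26.4% and 65.5% of the phagocytes in the sham libraries and 2.57% to 19.1% in the injured ones, and infiltrating macrophages were 0.909% and 0% in sham and 2.97% to 13.2% after injury. Phagocytes without a clear subset were 59.5% and 30.9% in sham and 59.9% to 71.5% after injury. The shares of microglia and infiltrating macrophages count gated cells only. The median depth of phagocytes was 8068 and 9552 UMIs in sham and 8934 to 16800 UMIs after injury. The summed level of the 8 neutrophil markers in phagocytes was 3127 CPM in sham replicate 1, 55.2 CPM in sham replicate 2 and 422 to 857 CPM after injury. The 8 dendritic cell markers summed to 2158 and 1112 CPM in sham and 535 to 1150 CPM after injury, with mild replicate 1 the injured library above sham replicate 2. Of these 8, Flt3, Clec9a and Xcr1 were at most 0.165 CPM in phagocytes of any library, beside at least 93.2, 59.8 and 2.25 CPM in dendritic cells. Batf3 was 2.74 and 1.53 CPM in sham phagocytes and 0.226 to 1.09 CPM in injured ones, beside 6.66 to 30.7 CPM in dendritic cells. Cd74, RT1-Da, RT1-Db1 and Irf8 overlapped between sham and injured phagocytes. The part of these in the results on all phagocytes was not tested.

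Within the microglia alone, Cst3 and Ctss were again lower after injury. Cst3 was 37260 and 43232 CPM in the sham libraries. It was 6738 and 9789 CPM in mild, 8049 and 4299 in moderate and 21428 and 13985 in severe injury, and no injured library reached the sham range. For the mean of the 3 injury groups against sham the log2 fold change was -2.05 ± 0.33 (adjusted p = 0.0174). Ctss was 1766 and 616 CPM in sham and 208 to 354 CPM after injury, with a log2 fold change of -2.04 ± 0.31 (adjusted p = 0.0146). These were the 2 members called of 10, both lower, beside 0.992% of 9775 genes called lower, 0.379% called higher and 1.37% in either direction. By CPM, 7.8% of these genes were below both sham libraries in all 6 injured ones, as were these 2 members, and 6.27% were above them, as were 2 other members, Ctsb and Ctsz.

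Ctsb was 2372 and 3396 CPM in sham microglia and 3399 to 6467 CPM after injury, so that severe replicate 1 (3399 CPM) lay next to sham replicate 2. Its log2 fold change was 0.74 ± 0.32 (adjusted p = 0.229). Ctsz was 2073 and 1753 CPM in sham and 2427 to 3386 CPM after injury (0.68 ± 0.27, adjusted p = 0.198). Ctsl, Ctsd, Ctsa, Ctsc, Ctsh and Cstb overlapped between sham and injured microglia, and Cstb was nearly level, at 928 and 880 CPM in sham and 766 to 1309 CPM after injury. A missed threshold with 2 sham libraries does not show that these levels were the same.

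**Figure D3:**
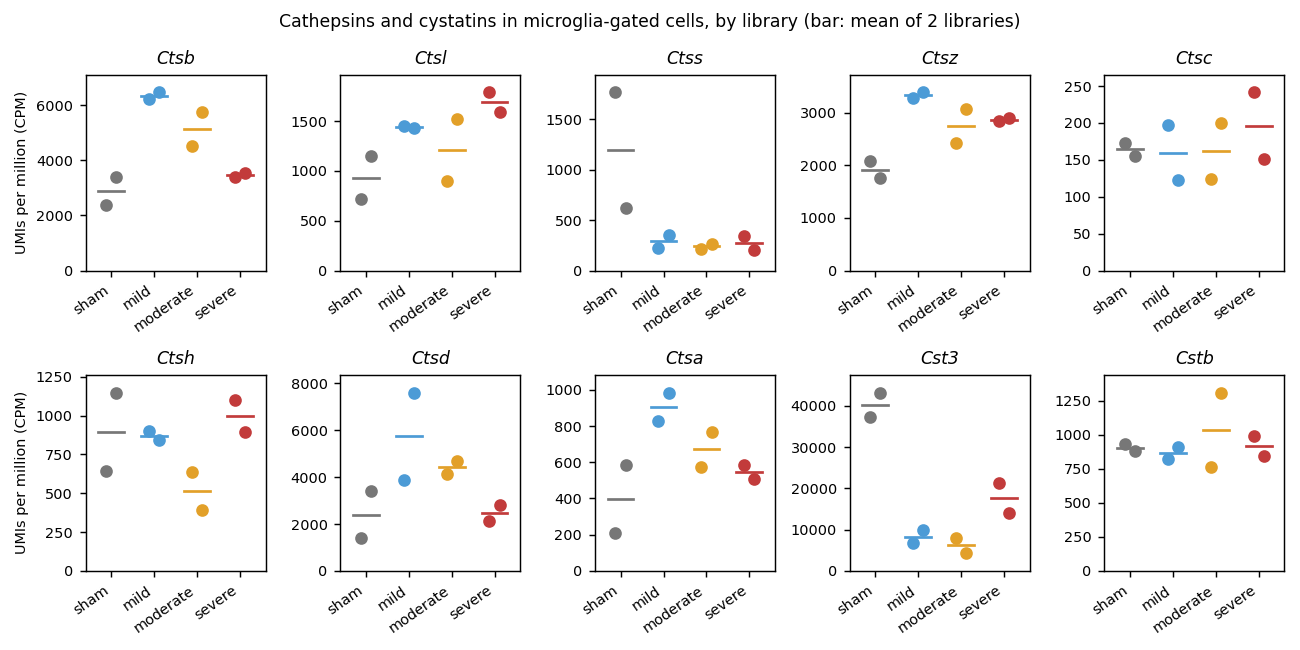
CPM of each member in microglia-gated cells, each point a library, by group, with a bar at the mean of the 2 libraries. Vertical axes start at 0 and differ between genes. Cst3 lay at 37260 and 43232 CPM in sham and between 4299 and 21428 CPM after injury, with the 2 severe libraries above the other injured ones.

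The numbers of microglia behind these values ran from 52 (severe replicate 1), 58 (sham replicate 1) and 59 (moderate replicate 2) to 1198 (sham replicate 2). Both calls held without either sham library, with a log2 fold change of Cst3 of -2.30 without sham replicate 1 and -1.71 without sham replicate 2. Both were lost without mild replicate 1 and without severe replicate 2, and that of Cst3 also without mild replicate 2 and without severe replicate 1 (adjusted p of Cst3 between 0.000965 and 0.0937 over the 8 omissions). The log2 fold change of Ctss was -1.36 without sham replicate 1. Over the 8 omissions the log2 fold change ran from 0.37 to 1.26 for Ctsb, 0.082 to 1.75 for Ctsd and 0.096 to 1.95 for Ctsa. The summed neutrophil markers in microglia were 1917 CPM in sham replicate 1, 43.1 CPM in sham replicate 2 and at most 241 CPM after injury. The 8 dendritic cell markers summed to 2634 and 924 CPM in sham and 225 to 485 CPM after injury, without overlap, so that they were lower after injury as Cst3 and Ctss were. Most of the sham sum was Cd74 (1539 and 531 CPM), which encodes the invariant chain. RT1-Da (547 and 183 CPM in sham, 15.3 to 53.9 after injury) and RT1-Db1 (450 and 87.0, 8.41 to 58.3) were also higher in sham. So was Batf3, at 4.62 and 1.61 CPM in sham and 0 to 0.861 CPM after injury. Irf8 overlapped (92.3 and 120 CPM, 111 to 234 CPM). Flt3, Clec9a and Xcr1 were at 0 in sham replicate 1, at most 0.22 CPM in sham replicate 2 and at most 1.2 CPM after injury. The summed microglial markers were 766 to 1114 CPM in sham and 479 to 748 CPM after injury. The part of these markers in the results on microglia was not tested.

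Other classes were not tested for injury. Cst3 was 2745 and 1366 CPM in oligodendrocyte precursors of the sham libraries and 346 to 880 CPM in those of the injured ones. It was the 1 member below both sham libraries in all injured ones there, beside 13.7% of 11597 genes, and 0 members were above them, beside 11.4%. The level implied by C1qb in the sham precursors was 185 and 996 CPM. In fibroblasts Cst3 was 4783 CPM in sham replicate 1, the sham library with enough cells, and 285 to 817 CPM after injury. In oligodendrocytes it was 768 and 3343 CPM in sham and 2540 to 6924 CPM after injury, so that the groups overlapped. The overlap came from sham replicate 2, where C1qb in oligodendrocytes was 7.37% of the phagocyte level. There Cst3 was 1.17 times the level implied by C1qb, the lowest such ratio of the 8 libraries. Sham replicate 1, at 768 CPM, lay below all injured libraries. The part of free RNA in the overlap was not tested. Ctsl in oligodendrocytes was 796 and 1605 CPM in sham and 1790 to 3061 CPM in the 6 injured libraries. Ctsl and Ctsa lay above both sham libraries in oligodendrocytes, beside 5.77% of 9596 genes, and Ctss lay below, beside 7.32%. Ctss averaged 23.9 CPM there in sham and 2.98 CPM after injury, and exceeded the level implied by C1qb in 4 of 8 libraries. The part of free RNA in this difference was not tested. In border macrophages Cst3 was 2639 and 7406 CPM in sham and 1839 to 3409 CPM after injury, which overlapped.

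Infiltrating macrophages and microglia of the same injured libraries differed in all 10 members. Infiltrating macrophages had more Cstb, Ctsl, Ctsa, Ctsc, Ctsb and Ctsd and less Cst3, Ctss, Ctsh and Ctsz. The 6 members higher and 4 lower stood beside 21.6% and 22.3% of 8118 genes called higher and lower, 43.9% in all. With library size alone the calls over all genes went from 1755 higher and 1812 lower to 1235 and 2775, the median of all genes moved from -0.02 to -0.21, and Ctsd (0.18, adjusted p = 0.108) and Ctsc (0.36, adjusted p = 0.133) were no longer called.

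The 2 inhibitors moved in opposite directions between the subsets. Cst3 was 548, 939, 692, 559, 573 and 607 CPM in infiltrating macrophages of mild replicates 1 and 2, moderate replicates 1 and 2 and severe replicates 1 and 2, and 4299 to 21428 CPM in microglia. Every infiltrating value lay under every microglial one, and the log2 fold change was -3.66 ± 0.25 (adjusted p = 2.43e-08). Cstb was 2813, 2235, 2439, 2899, 3654 and 2874 CPM in infiltrating macrophages in the same order and 766 to 1309 CPM in microglia. Here every infiltrating value lay above every microglial one, with a log2 fold change of 1.78 ± 0.10 (adjusted p = 3.52e-09). Ranges without overlap in this direction were found for 4.78% of the 8118 genes and for 2 members, Cstb and Ctsl, and in the other direction for 9.45% and for Cst3 and Ctss.

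Among the proteases, Ctsl differed most. It was 2504 to 4590 CPM in infiltrating macrophages and 897 to 1788 CPM in microglia, without overlap (log2 fold change 1.41 ± 0.14, adjusted p = 1.15e-06). Ctsa was higher in 6 of 6 libraries (0.84 ± 0.13, adjusted p = 6.28e-05), as was Ctsb (0.49 ± 0.10, adjusted p = 0.00101), although the Ctsb ranges of 3608 to 8976 CPM and 3399 to 6467 CPM overlapped across libraries. Ctsd was 0.37 ± 0.10 higher on the log2 scale (adjusted p = 0.0066) but by CPM was higher in 4 of 6 libraries. Ctsc was higher in 4 of 6 libraries too (0.55 ± 0.18, adjusted p = 0.0239), and its call was lost without severe replicate 1 or 2 and with at least 4 markers required.

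Ctss was lower in infiltrating macrophages in 6 of 6 libraries, at 74.9 to 203 CPM beside 208 to 354 CPM (-0.75 ± 0.15, adjusted p = 0.00097). Ctsh (-0.40 ± 0.11, adjusted p = 0.00612) and Ctsz (-0.32 ± 0.09, adjusted p = 0.0112) were lower in 6 of 6 libraries as well. None of the calls of these 3 members was lost when any injured library was left out.

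**Figure D4:**
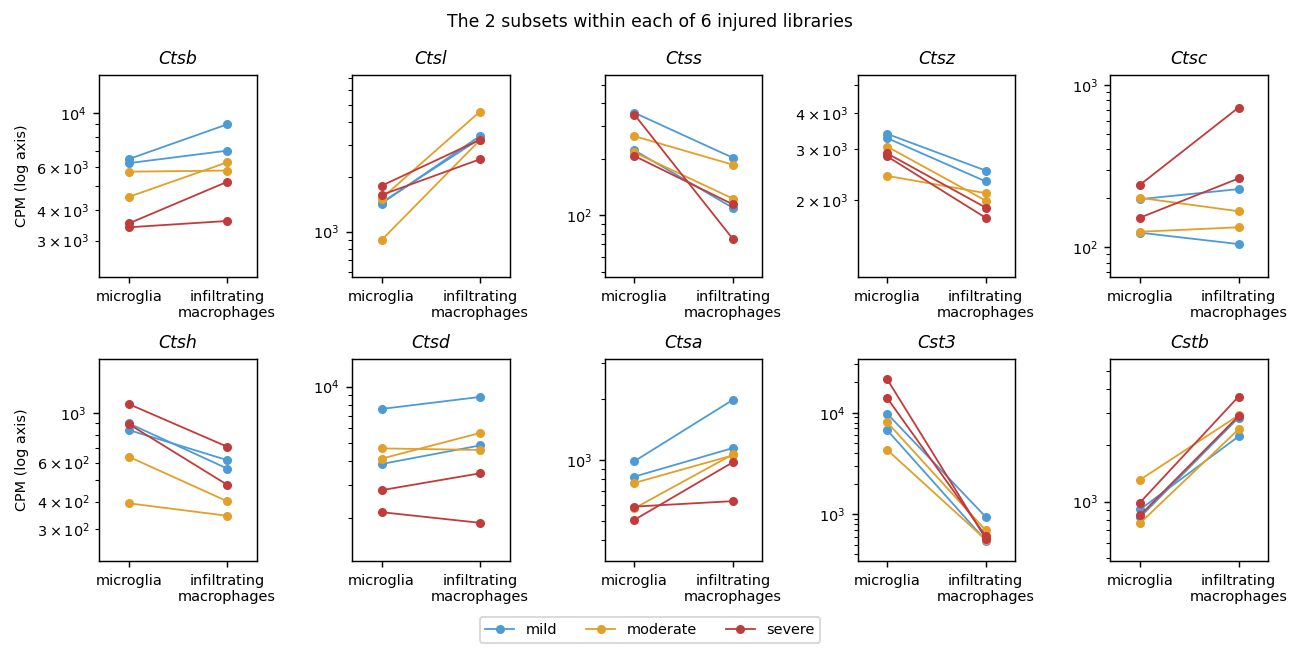
CPM of each member in microglia and in infiltrating macrophages of the same library, on a log axis, with a line for each of the 6 injured libraries (blue mild, orange moderate, red severe). Every line fell for Cst3, Ctss, Ctsh and Ctsz and rose for Ctsb, Ctsl, Ctsa and Cstb, and the lines of Ctsd and Ctsc went both ways.

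Marker levels differed between the subsets as the gate requires, with 2938 to 5816 CPM of the 6 measured infiltrating markers and 23.8 to 60.9 CPM of the 8 microglial ones in infiltrating macrophages. C1qb was 271 to 415 CPM in infiltrating macrophages and 6321 to 9462 CPM in injured microglia. The 8 neutrophil markers summed to 2667 to 4452 CPM in infiltrating macrophages and 70.2 to 241 CPM in injured microglia. Most of that sum was Slpi (2494 to 4331 CPM), while S100a8 was 4.5 to 51.1 CPM beside 6402 to 17157 CPM in neutrophils of the injured libraries, and Cxcr2 was at 0 in all 6. The median depth was 7327 to 14849 UMIs in infiltrating macrophages and 8705 to 20571.5 UMIs in injured microglia. The fewest infiltrating macrophages, 25, were in severe replicate 1.

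The balance of inhibitor and protease molecules followed from these levels and is given as a description. In phagocytes there were 422 and 471 UMIs of Cst3 and Cstb for every 100 UMIs of the 6 cysteine cathepsins (Ctsb, Ctsl, Ctss, Ctsz, Ctsc and Ctsh) in the sham libraries. The injured libraries had 37.0 and 48.7 in mild, 51.0 and 35.4 in moderate and 108 and 93.4 in severe injury. In microglia the value was 493 and 537 in sham and 50.1 to 231 after injury, and in infiltrating macrophages it was 20.1 to 42.0. Dendritic cells had 219 to 488 and neutrophils 29.05 to 85.4. The share of Cstb in the cystatin UMIs differed as well, since infiltrating macrophages had 14.1 to 36.3 Cstb UMIs and 4.06 to 5.94 Cst3 UMIs per 100 cathepsin UMIs, where sham microglia had 11.98 and 10.7 of Cstb and 481 and 526 of Cst3. These are counts of RNA and give no measure of protein or of enzyme activity.

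**Figure D5:**
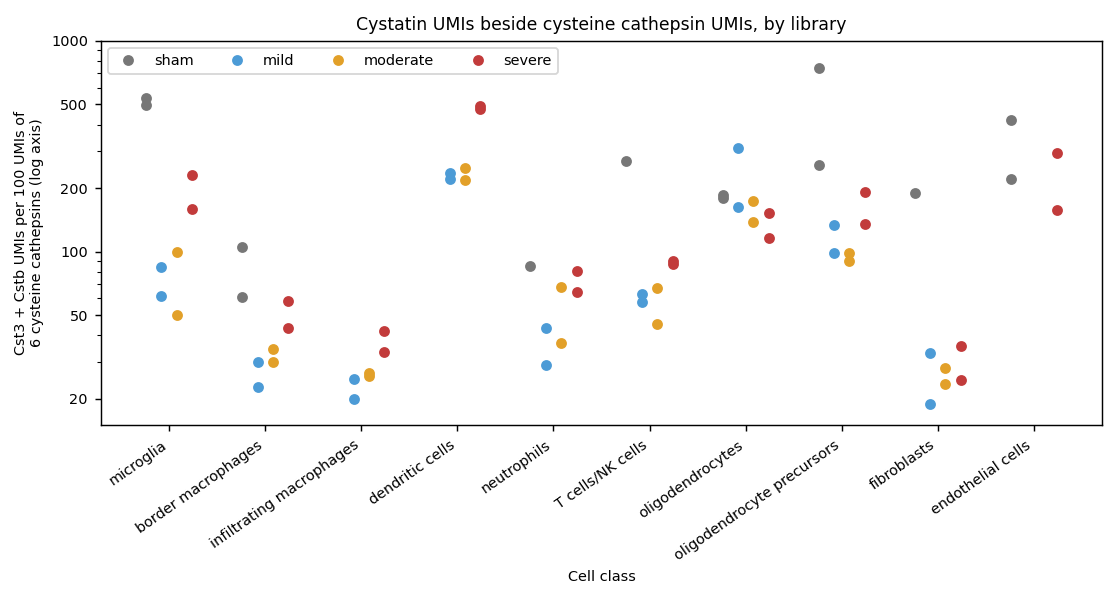
UMIs of Cst3 and Cstb together for every 100 UMIs of the 6 cysteine cathepsins, on a log axis, in each class with at least 20 cells, each point a library, by group. Sham microglia lay at 493 and 537, injured microglia at 50.1 to 231 and infiltrating macrophages at 20.1 to 42.0.

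Other genes of the pathway were followed in 4 lists. Of 11 other inhibitors of proteases, 3 passed the filter in phagocytes and 2 of them, Cst7 and Serpinb6a, rose in each injury group against sham, where 4.76%, 3.02% and 4.65% of all genes were called higher in mild, moderate and severe injury. Cst7, the leukocyte cystatin F, rose by 3.92 ± 0.57, 2.56 ± 0.56 and 3.29 ± 0.57 on the log2 scale in mild, moderate and severe injury (adjusted p = 0.01, 0.0416 and 0.0142), from a mean of 2.05 CPM in sham. Serpinb6a, a serpin of a family known mainly for blocking serine proteases, rose by 2.79 to 3.34 (adjusted p between 0.013 and 0.0255). These calls come from the fit of all 8 libraries. When only sham and moderate injury were fitted, 0 genes were called, so the calls of both in moderate injury were lost. The make-up of the phagocytes also differed from sham, and its part in these rises was not tested. In microglia neither list member that was tested was called.

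Of the 10 genes for sorting and stability of lysosomal enzymes, all 10 were tested. In mild, moderate and severe injury 2, 1 and 2 of them were called, all higher. Among all genes 4.76%, 3.02% and 4.65% were called higher, and 8.99%, 4.54% and 7.18% in either direction. Igf2r, the large mannose 6-phosphate receptor that carries new cathepsins to the lysosome, rose by 3.0 ± 0.31 in mild, 3.37 ± 0.31 in moderate and 3.14 ± 0.31 in severe injury (adjusted p = 0.00437, 0.00365 and 0.00157), from a mean of 5.41 CPM in sham to between 37.9 and 58.8 CPM. It also rose in microglia (1.94 ± 0.36, adjusted p = 0.0282), the 1 list gene called there. Neu1, the sialidase that Ctsa protects, rose in mild and severe injury (0.95 ± 0.24 and 1.02 ± 0.24, adjusted p = 0.0446 and 0.0387). In the fit of sham and moderate injury alone, where 0 genes were called, the call of Igf2r was lost as well.

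Of the 7 other cathepsins and legumain present, 6 were tested in phagocytes and none was called in any of the 4 phagocyte comparisons by edgeR at an adjusted p under 0.05. At an unadjusted p under 0.05, 2 of them, Ctsk and Napsa, passed against sham in each injury group, both with higher values after injury. At that cut 3798, 3023 and 3506 of the 12699 genes passed in mild, moderate and severe injury. In severe against mild 0 of the 6 passed, beside 2594 of all genes. Among 5 transcription factors of lysosomal genes, Tfeb rose in mild injury (1.53 ± 0.30, adjusted p = 0.0245). Tfec rose in severe injury, against sham (1.68 ± 0.42, adjusted p = 0.0479) and against mild injury (2.12 ± 0.41, adjusted p = 0.0331). In each of these comparisons 1 of the 5 was called, and in moderate injury 0. Among all genes 4.76%, 3.02% and 4.65% were called higher in mild, moderate and severe injury, and 1.91% in severe against mild. The calls of Tfeb and Tfec come from the fit of all 8 libraries. Whether they hold in other fits is not reported here.

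Between infiltrating macrophages and microglia, where 43.9% of all genes tested were called, the lists were called as follows. Among the other cathepsins, Napsa, an aspartic protease, was 249 CPM on average in infiltrating macrophages and 2.21 CPM in microglia (log2 fold change 7.0 ± 0.18, adjusted p = 3.45e-12), and Ctsk was higher too (1.65 ± 0.29), while Ctse (-2.54 ± 0.23) and Ctsf (-0.53 ± 0.12) were lower. Serpinb6a (5.77 ± 0.14), Cst7 (5.32 ± 0.22) and Serpinb1a (0.47 ± 0.13), an inhibitor of neutrophil elastase, were higher, which were the 3 inhibitors tested. Of the 10 sorting genes 3 were higher and 6 lower. Igf2r was higher (2.77 ± 0.12), whereas Sort1, another sorting receptor, was lower (-3.26 ± 0.21). Tfeb (1.31 ± 0.19) and Mitf (1.86 ± 0.15) were higher and Zkscan3 was lower (-0.54 ± 0.19).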

How the data were processed

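For each library the authors deposited raw counts, the UMI counts of 32623 genes in each cell, made with Cell Ranger. The file headers name version 5.0.1, and the submitters' processing notes name Rnor 6.0 as the genome build and Seurat for later steps. Strand use and the assignment of reads shared by near-identical family members, such as the stefins, were not given in the sources used here.

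Cells over 10% mitochondrial UMIs, the 7.7% with the highest Scrublet doublet scores (scanpy 1.11.5) and cells beyond 2 SD of the mean in UMIs or genes were removed, after the study's methods. A class needed at least 3 of 8 markers and a lead of 25% of its list over the next class, and 113 of the 120 markers listed were matched by symbol. UMIs were summed per class and library. edgeR 4.0.16 quasi-likelihood tests (TMM, filterByExpr, Benjamini-Hochberg over all genes tested, threshold 0.05) compared groups in 1 fit of all 8 libraries. Subsets and classes were compared with the library as a block. The tests were tried on simulated counts first. DESeq2 1.42.0, other scalings, filters and gates, a replicate block and the omission of each library were alternatives. Any 2 libraries shared at most 0.452% of the barcodes of the smaller one.

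All 10 members are named in every comparison, up to 5 called genes of each list, and the genes among the 5 most like Ctsb and Cst3 by correlation over class sums, of which 1 is not reported here. The members, lists and tests were chosen with earlier results of these data known. The study's imaging, qPCR and protein data were not analysed here.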

Additional observations from a re-analysis of the deposited data

How the results depend on the processing

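Of the 850 log2 fold changes of a member recomputed under an alternative, 738 kept their direction and their side of the threshold, 54 fell short of it, 41 newly passed it and 17 changed sign, none of which was called in the reported fit. All 60 recomputed mean levels moved by less than the SD between libraries, and thinning to 500 UMIs moved 8 of 10 shares by more than that. The cause of the changes below was not tested. With DESeq2, 5 members were higher in mild, 1 in moderate and 5 in severe injury against sham and 2 in severe against mild, with 1837, 1218, 1629 and 914 genes called in all, and 258 in microglia. With no filter on low counts these were 4, 2, 4 and 2 members and 2443, 1873, 2127, 1434 and 900 genes. Scaled by library size alone, 1684 genes were called in severe against sham and 725 in severe against mild. Without doublet removal 1 member was higher in severe injury against sham and 0 pairs were lower in phagocytes than in another class. Fitted on the 2 groups compared alone, 0 members were higher or lower in mild injury (17 genes in all), 0 lower in moderate (0 genes), 0 lower in severe (299 genes) and 1 higher in severe against mild (1483 genes).

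The labels link same-numbered libraries of different groups by the number alone and name no batch. Their deviations from the group means correlated between -0.29 and 0.23. With the replicate number as a block, 0 members were higher and 1 lower in mild injury (489 genes in all), 1 lower in moderate (301 genes), 0 lower in severe (580 genes), and 233 genes were called in severe against mild.

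With a library left out, 0 to 4 members were higher and 0 to 2 lower in mild injury (69 to 2004 genes), 0 to 4 and 0 to 3 in moderate (54 to 1405 genes), 0 to 5 and 0 to 1 in severe (204 to 1643 genes), 0 and 0 in severe against mild (65 to 1227 genes), and 0 to 3 and 0 to 2 in microglia (15 to 616 genes). A group left with 1 library was assumed to vary like the others. Between infiltrating macrophages and microglia 5 to 6 members were higher and 4 lower (3067 to 3605 genes), and 52 to 53 pairs were higher and 1 lower in phagocytes than in other classes.

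The sign changes by library size alone were Ctsh in severe against sham (-0.16) and Ctsl (-0.15) and Ctss (-0.31) in severe against mild. With no filter Ctsc in mild against sham was 0.0034. With a library left out, the log2 fold change of Ctsc in mild against sham ran from -0.39 to 0.26 and that of Ctsh from -0.63 to 0.46, and Ctsh in severe against sham ran from -0.20 to 0.89. In severe against mild Ctss ran from -0.33 to 0.49 and Ctsz from -0.18 to 0.063. In microglia Ctsc ran from -0.030 to 0.21, Ctsh from -0.72 to 0.48 and Cstb from -0.059 to 0.24.

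With 2 libraries a group, 25 infiltrating macrophages in severe replicate 1 and 52 to 59 microglia in 3 libraries, small differences were not detectable.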
